A study of Mus musculus with 4 samples.

Results

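Solute carriers are membrane proteins that move amino acids, sugars, nucleosides, vitamins, ions and metals across the cell surface and the membranes of organelles. The members described here are the genes whose probe sets carry a single symbol of the form Slc, family number, a, member number, with Slc34a2, Slc4a1 and Slc12a2 left out, whatever their signal. The rule gave 242 genes, read by 385 of the 22690 probe sets on the array, out of 12393 genes with such a probe set. It also takes in 3 genes that are not carriers but are named after one, the adaptor proteins Slc9a3r1 and Slc9a3r2 and the gene Slc4a1ap.

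The samples were whole lungs of mouse embryos, 2 wild type and 2 carrying Sftpc-Nmyc, each on its own Affymetrix array with 1 signal per probe set. The transgene joins mouse Nmyc1 (Mycn, a transcription factor of the MYC family) to EGFP under a 3.7 kb promoter and enhancer fragment of human SFTPC, which is active in lung epithelium. All 4 titles give embryonic day 18, the design text places the 4 transgenic embryos it describes partway through that day, and it gives no age for the wild type. Those embryos came from injected (C57BL/6J and DBA/2J) F2 eggs, so the transgene was not carried by an established line, and which of them were hybridised, and the strain of the wild-type embryos, are not given. Replicates are separate biological samples per the design text.

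Carriers differ in direction and place. Those of the cell surface bring in or release nutrients, some as pairs of a light and a heavy chain such as Slc7a5 with Slc3a2, while the Slc25 family sits in the inner mitochondrial membrane and exchanges metabolites, nucleotides and cofactors with the cytosol. MYC proteins are known for raising the uptake of amino acids and the export of lactate in dividing cells, and alveolar type II cells of the lung are known for taking up phosphate as they make surfactant. The comparison of transgenic with wild-type lungs asks what misexpressed Nmyc changes in the lung, here among these carriers.

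Most solute carriers did not pass in Sftpc-Nmyc lungs, and those that did went both ways, also within the amino acid and mitochondrial carriers. The reduced folate carrier Slc19a1, the lactate carrier Slc16a1 and the amino acid carrier Slc7a5 rose by 2.11-fold or more. The mitochondrial aspartate and glutamate carrier Slc25a13 rose 4.47-fold, over wild-type signals that were both within the range of the array's Bacillus control probe sets, so the size of this fold is uncertain. In the other direction, Slc39a8, Slc52a3 and Slc22a23 fell between 2.42-fold and 6.73-fold (n = 2 per group). Of the 242 members, 146 were bright enough to be tested with limma, and 33 passed (Benjamini-Hochberg adjusted p below 0.05), 12 of them higher and 21 lower in transgenic than in wild-type lungs. That is 22.6% of the tested members, against 30.4% of all 8675 genes tested. By direction, 8.22% of tested members were higher, against 14.7% of all genes, and 14.4% were lower, against 15.7%. A change of at least 2-fold was reached by 8 of the 146 tested members as higher and by 6 as lower, and over all genes by 5.53% and 6.02%. On the log2 scale the median difference of transgenic from wild-type lungs was -0.15 for the 146 members and -0.02 for all genes. Of the members 91 (62.3%) lay below 0, against 51.5% of all genes. These shares are descriptions of the members that were bright enough, and no test sets them against the other genes. Without the 3 genes that are not carriers, 32 of 143 passed and the median was -0.14.

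**Figure D1:**
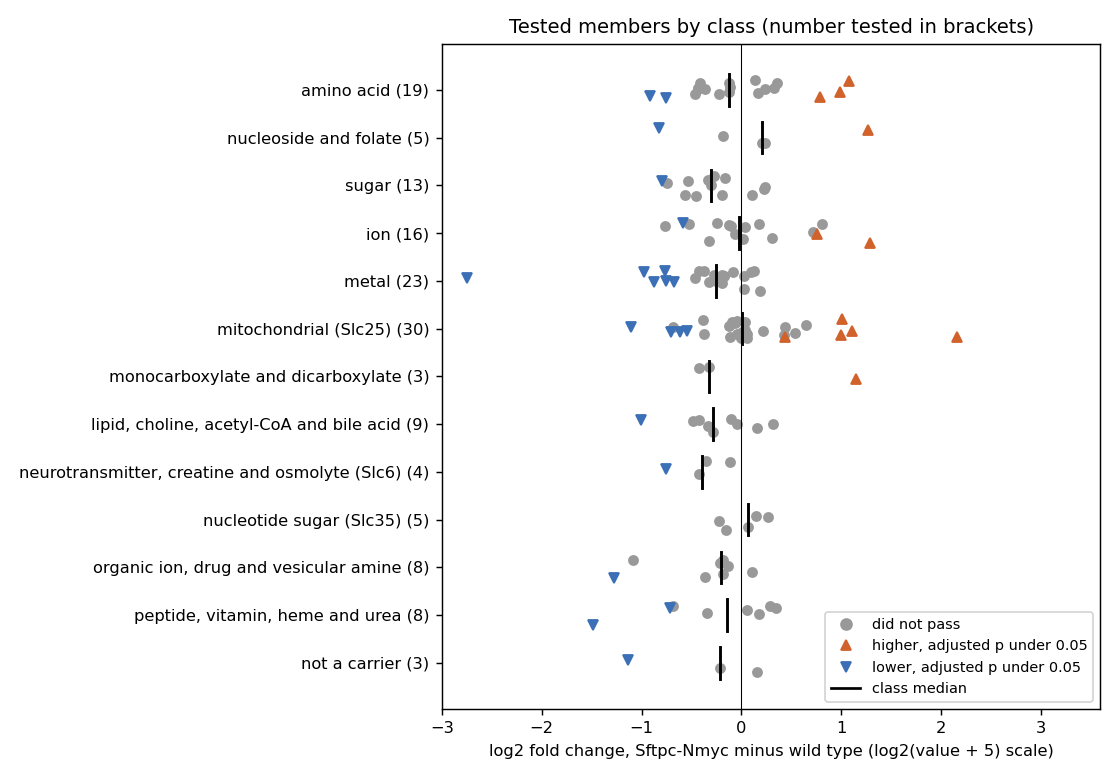
Log2 fold change (transgenic minus wild type, log2(value + 5) scale, x axis) of each of the 146 tested members, by class (y axis, number tested in brackets). Triangles passed at a limma adjusted p under 0.05, grey points did not, and black bars are class medians; most points lie within 1 log2 unit of 0, and Slc39a8 among the metal carriers and Slc25a13 among the mitochondrial carriers lie farthest out at -2.75 and 2.16.

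The 33 members that passed had deposited signals whose groups did not overlap, a property that 91 of the 146 tested members (62.3%) and 68.4% of all genes tested shared. The other 96 members lay below the 30th percentile of mean signal and were not tested, and 95 of them were at or under 73.4 on every array, the top value of the 27 Bacillus control probe sets. The exception was Slc30a1, a zinc exporter of the cell surface, with signals of 81.7 and 57.3 in wild type and 22.4 and 5.1 in transgenic lungs. Among the tested members 17 stayed at or under 73.4 throughout, 2 of them called, Slc4a8 and Slc25a14, so their values lie in a range where signal and background are hard to separate.

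**Figure D2:**
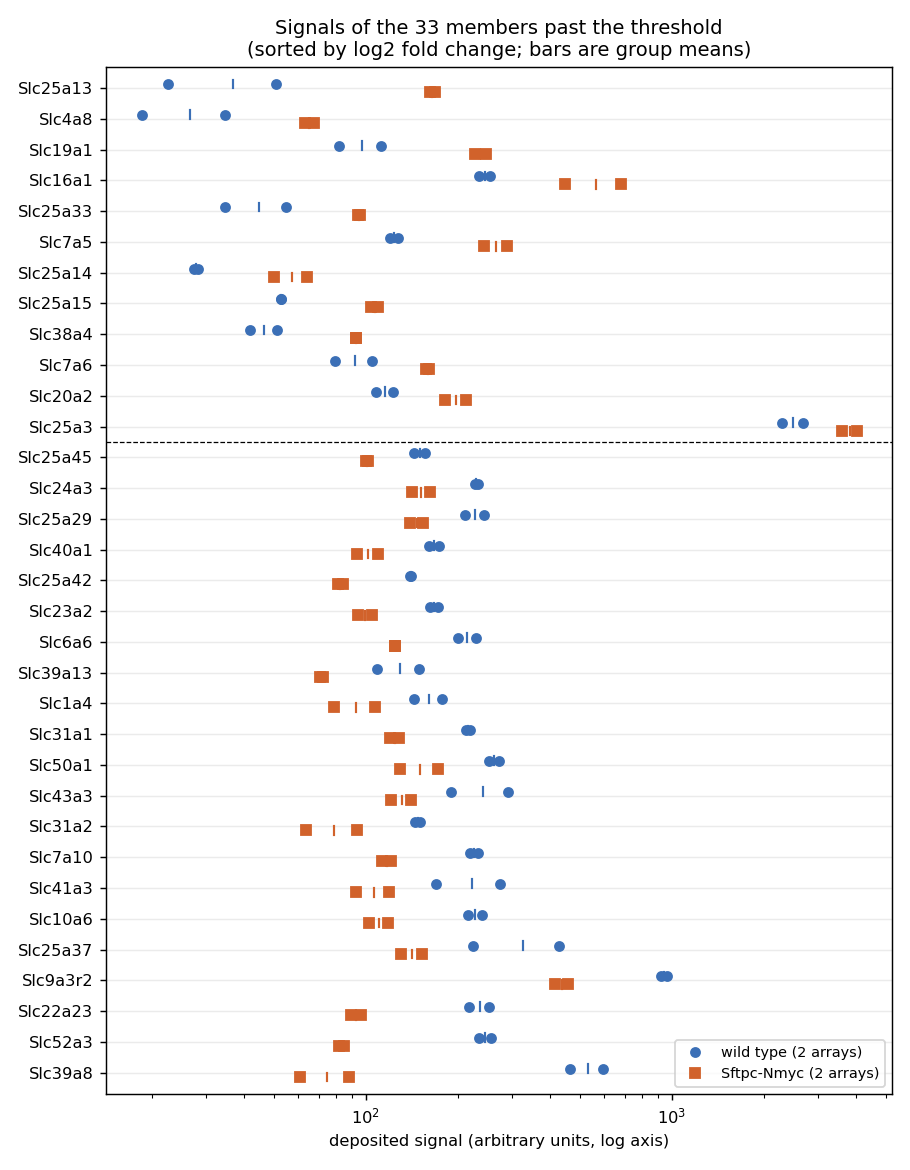
Deposited signal (arbitrary units, log x axis) on each array for the 33 members that passed, sorted by log2 fold change, with circles for the 2 wild-type and squares for the 2 transgenic arrays and short bars for group means. The 12 genes above the dashed line were higher and the 21 below it lower in transgenic lungs; no gene's circles and squares overlap, and Slc25a3 is by far the brightest, at 2284 to 4016.

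Mycn itself had signals of 34.7 and 32.1 in wild type and 455.2 and 356 in transgenic lungs on its brightest probe set. Lung identity was plain on all 4 arrays, with Sftpc at 4817.4 or more, Scgb1a1 at 1323.7 or more and Nkx2-1 between 86.7 and 133.8. Marker lists of several cell types moved with the groups, and whether a carrier's transcript fell because there were fewer cells of a type or less RNA per cell cannot be told apart in whole lung. All 9 measured alveolar type II markers fell, with summed signals of 33391.7 to 38763.3 in wild type and 8116.6 to 10475 in transgenic lungs. All 10 endothelial markers fell (7396.2 to 8378.1 against 2959.9 to 3029.2), as did all 7 measured alveolar type I markers (15115.3 to 15149.7 against 6269.3 to 8914.9), 7 of 8 fibroblast markers (20236.3 to 21796.3 against 12182 to 12717.4), 4 of 8 macrophage markers (4433.1 to 5885.1 against 1198.7 to 1200.4) and 7 of 8 cardiac muscle markers (1837.1 to 2974 against 332.9 to 578.7). Part of the list also fell for smooth muscle (3 of 6 fell, sums of 3291.6 to 3625.1 against 1733.4 to 2288.8), club cells (3 of 5, 19431.4 to 19992.6 against 10145.8 to 14928.8) and mesothelium (2 of 4, 2303.8 to 2873.8 against 1359.3 to 1604.9). Of 5 erythroid markers measured only Alas2 was tested, and it fell (list sums 1909.4 to 2208.6 against 402.5 to 420.3). All 6 measured markers of dividing cells rose, from 1546.4 to 2203.5 in wild type to 4656.8 to 4869.6. No marker was at 0 on any array, and the part of these shifts in the carriers' values was not tested. Xist, at 1707.8 and 1506.1 in wild type and 59.3 and 63.9 in transgenic lungs, also separated the groups, so sex and genotype cannot be told apart.

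MYC proteins bind the letters CACGTG, an E-box, so these letters were searched in the promoter windows of members that passed. Windows of 300 bases, 250 before and 50 after an annotated start, came from the RefSeq promoter table (build GRCm38.p6), which held 189 of the 242 members by symbol, and the letters read the same on both strands. Among members that rose, 5 of the 10 with a window held CACGTG in at least 1 window, namely Slc16a1, Slc25a13, Slc25a14, Slc25a15 and Slc25a33. Of these, Slc25a15 rose only on the probe set that stood for it, and its other probe set was lower without passing. Slc25a14 stayed within the range of the Bacillus control signals on all arrays. Among members that fell, 3 of 16 (18.8%) held it, Slc31a2, Slc39a8 and Slc41a3, and among tested members that did not pass 13 of 86 (15.1%). Over all genes tested the share was 12.1%, with 16% of the higher and 8.65% of the lower genes, and it was 8.09% of all genes in the table. The counts are small and some genes have several windows, so these shares are descriptions. Median GC content of the windows was 65.7% for members that rose, 64.8% for those that fell and 61% over all genes tested. A match is not evidence of binding in these lungs. Slc19a1, Slc7a6, Slc25a3, Slc38a4 and Slc4a8 had windows without these letters, and Slc7a5 and Slc20a2 had no entry.

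The windows of the 5 rising members with the letters, and of Slc39a8 as the member that fell most, are shown to let the position of the letters be compared, with CACGTG in capitals, on the coding strand and 5′ to 3′. The letters begin 200 bases before the start in Slc16a1, 125 before it in Slc25a13, 54 in Slc25a14, 77 in Slc25a15, 8 in Slc25a33 and 71 in Slc39a8. In Slc25a14 the same site also lies in a second, overlapping window, 184 bases before that window's start.
Slc16a1 (chr3:104638414-104638713, plus strand): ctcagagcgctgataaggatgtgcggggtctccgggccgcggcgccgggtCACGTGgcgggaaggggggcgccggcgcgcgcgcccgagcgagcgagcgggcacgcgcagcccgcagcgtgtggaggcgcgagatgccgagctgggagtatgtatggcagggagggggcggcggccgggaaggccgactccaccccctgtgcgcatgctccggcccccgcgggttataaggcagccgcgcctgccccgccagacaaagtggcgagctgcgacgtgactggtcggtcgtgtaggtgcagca
Slc25a13 (chr6:6217124-6217423, minus strand): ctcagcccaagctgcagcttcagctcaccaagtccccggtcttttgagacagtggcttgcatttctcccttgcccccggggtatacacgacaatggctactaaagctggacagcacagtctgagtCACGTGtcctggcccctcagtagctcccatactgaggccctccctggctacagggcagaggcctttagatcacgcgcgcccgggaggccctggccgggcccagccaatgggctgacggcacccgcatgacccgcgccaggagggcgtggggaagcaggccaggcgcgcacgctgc
Slc25a14 (chrX:48623198-48623497, plus strand): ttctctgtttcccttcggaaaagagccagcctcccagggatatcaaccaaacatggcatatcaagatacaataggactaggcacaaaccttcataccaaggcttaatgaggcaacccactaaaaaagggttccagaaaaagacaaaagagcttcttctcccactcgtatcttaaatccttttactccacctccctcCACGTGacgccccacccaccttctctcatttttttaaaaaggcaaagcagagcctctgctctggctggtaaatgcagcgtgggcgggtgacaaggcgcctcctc
Slc25a15 (chr8:22398228-22398527, minus strand): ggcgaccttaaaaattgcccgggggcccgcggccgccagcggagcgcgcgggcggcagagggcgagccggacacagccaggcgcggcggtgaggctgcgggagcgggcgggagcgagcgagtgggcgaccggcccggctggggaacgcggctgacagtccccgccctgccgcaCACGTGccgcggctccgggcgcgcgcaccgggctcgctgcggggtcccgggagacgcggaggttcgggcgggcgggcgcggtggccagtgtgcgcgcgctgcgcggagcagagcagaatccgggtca
Slc25a33 (chr4:149774218-149774517, minus strand): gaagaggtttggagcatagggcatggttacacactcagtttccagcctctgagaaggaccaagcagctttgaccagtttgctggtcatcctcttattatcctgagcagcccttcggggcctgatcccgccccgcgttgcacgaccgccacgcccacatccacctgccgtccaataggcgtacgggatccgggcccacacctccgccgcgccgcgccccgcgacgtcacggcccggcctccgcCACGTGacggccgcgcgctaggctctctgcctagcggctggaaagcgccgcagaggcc
Slc39a8 (chr3:135825407-135825706, plus strand): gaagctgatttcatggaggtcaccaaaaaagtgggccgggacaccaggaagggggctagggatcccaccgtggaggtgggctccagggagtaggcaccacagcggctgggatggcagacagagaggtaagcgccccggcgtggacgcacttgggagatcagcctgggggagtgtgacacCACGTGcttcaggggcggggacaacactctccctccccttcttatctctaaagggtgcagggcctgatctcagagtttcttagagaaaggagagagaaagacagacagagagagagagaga

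Carriers of amino acids had 39 members, of which 19 were tested, 3 rose and 2 fell, with a median log2 fold change of -0.12 (range -0.92 to 1.08). The 3 that rose move large neutral, cationic and small neutral amino acids. Slc7a5, the light chain of the exchanger that imports leucine and other large neutral amino acids, had signals of 127 and 119.7 in wild type and 289.6 and 242.3 in transgenic lungs. Both transgenic arrays lay well above both wild-type arrays, a log2 difference of 1.08 ± 0.17 (SE, n = 2 per group; limma adjusted p = 0.00281). Its heavy chain Slc3a2, which carries it to the cell surface, stood at 269.6 and 332.5 against 402 and 371.5, and its 0.36 ± 0.16 did not pass (limma adjusted p = 0.123). Slc7a6, another light chain of Slc3a2 that exchanges cationic for neutral amino acids, went from 104.5 and 79.2 to 160.6 and 157.7, a rise of 0.79 ± 0.19 (limma adjusted p = 0.0174). Its second probe set also rose, by 0.67 ± 0.20. Slc38a4, a sodium-coupled carrier of small neutral amino acids, went from 51.4 and 41.8 to 92.9 and 92.7, a rise of 0.99 ± 0.22 (limma adjusted p = 0.0126). Its groups lay on either side of 73.4, the highest Bacillus control signal. The rises of Slc7a6 and Slc38a4 did not pass without wild-type replicate 2 or either transgenic array, at 0.61 to 0.81 (limma adjusted p = 0.068 to 0.085) and 0.89 to 1 (0.055 to 0.070).

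In the other direction, Slc7a10, a sodium-independent exchanger of small neutral amino acids including D-serine, fell from 219.6 and 233.1 to 121 and 113.2, a log2 difference of -0.92 ± 0.16 (limma adjusted p = 0.00464). Slc1a4, a sodium-dependent exchanger of alanine, serine and cysteine, went from 144.1 and 177.9 to 107.2 and 78.4, a change of -0.76 ± 0.21 (limma adjusted p = 0.0317). Of its 3 probe sets another fell by 1.41 ± 0.20 and the remaining one stood at 0.13 ± 0.25. Leaving out either wild-type array, or transgenic replicate 2, ended the call for Slc1a4 (-0.92 to -0.54, limma adjusted p = 0.062 to 0.17), and also with the replicate number as a block (limma adjusted p = 0.058).

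Several amino acid carriers often discussed with MYC did not pass. Slc1a5, a glutamine carrier, had signals of 300.1 and 345.6 in wild type and 172.5 and 321.3 in transgenic lungs. Transgenic replicate 1 was low and replicate 2 lay within the wild-type range, so the groups overlapped, and the value of -0.44 ± 0.27 had a limma adjusted p of 0.253. Without transgenic replicate 2 it was -0.87 (limma adjusted p = 0.024). Slc38a1 and Slc38a2, further glutamine and neutral amino acid carriers, stood at 0.33 ± 0.19 and 0.14 ± 0.14, and neither passed. The glycine carrier Slc6a9 stood at -0.37 ± 0.19 on its brighter probe set and, the other way, at 0.56 ± 0.20 on its dimmer one, with 72.1 and 70.4 in wild type against 94.7 and 115.1. Neither passed and their mean was 0.10, so this gene has no settled direction. Slc7a1, an arginine and lysine carrier, and Slc7a11, the cystine exchanger, were among the 20 members too dim to test, with signals of 12.6 to 37.7 and 18.4 to 32.1. Nothing can be said of their direction at this signal.

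Beside these carriers stand enzymes and regulators of the amino acid response. Of 26 tested, 6 rose (Aldh18a1, Asns, Eprs, Phgdh, Psat1 and Shmt2) and 3 fell (Eif4ebp1, Nupr1 and Vldlr), with a median of 0.08. Over all genes tested 14.7% were higher and 15.7% lower. Asns, which makes asparagine, rose by 1.56 ± 0.16 and Phgdh, the first enzyme of serine synthesis, by 1.56 ± 0.13, while Vldlr fell by 1.15 ± 0.17. Atf4, the transcription factor of the response, stood at 0.10 ± 0.14 and did not pass.

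Nucleoside and folate carriers were few, with 5 of 8 members tested, 1 higher and 1 lower, and a median of 0.21. Slc19a1, which takes up reduced folates, rose from 111.9 and 81.8 to 226.7 and 246.9, a log2 difference of 1.27 ± 0.19 (limma adjusted p = 0.0027). Both transgenic arrays were above both wild-type arrays, and again so on a second probe set, at 212.5 and 222.7 against 66.4 and 65.8 (1.68 ± 0.17); the remaining probe set was dim. Slc46a1, the proton-coupled folate carrier, had signals of 65.2 and 51.8 against 38.8 and 58.5, which overlapped (-0.18 ± 0.27). Slc43a3, which carries purine nucleobases, fell from 291.9 and 189.8 to 121.2 and 140.8, a change of -0.83 ± 0.22 (limma adjusted p = 0.0256). Its wild-type arrays were far apart, and it no longer passed when wild-type replicate 1 or either transgenic array was left out (-0.92 to -0.52, limma adjusted p = 0.058 to 0.13).

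Equilibrative nucleoside carriers did not pass. Slc29a1, the main carrier of this type at the cell surface, stood at 145.3 and 151.1 against 186.7 and 157.1 (0.21 ± 0.17, limma adjusted p = 0.38), and Slc29a2 was too dim to test. Slc29a3, of lysosomes, read 100 and 101.7 against 110.1 and 126.8 on its brighter probe set (0.24 ± 0.18). Its dimmer probe set was lower instead, at 46.4 and 68.6 in wild type against 8.5 and 10, and with the mean of both the gene stood at -0.88 (limma adjusted p = 0.023). Which of them reads the transcript better is not known here, so the gene has no settled direction.

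Sugar carriers had 22 members, of which 13 were tested, none rose and 1 fell, with a median of -0.30 (range -0.79 to 0.24). Slc50a1, a sugar carrier of the SWEET family, went from 273.2 and 252.1 to 172.4 and 128.8, a log2 difference of -0.79 ± 0.19 (limma adjusted p = 0.0153). Leaving out either wild-type array, or transgenic replicate 2, ended this call (-0.85 to -0.59, limma adjusted p = 0.069 to 0.090). The glucose carriers of growing cells did not pass. Slc2a1 had signals of 250.2 and 266.3 in wild type and 289.4 and 268.7 in transgenic lungs, a difference of 0.11 ± 0.15 whose 3 probe sets ranged from 0.11 to 0.19. The groups for Slc2a1 lay next to each other without overlapping. Slc2a3 stood at -0.30 ± 0.21. Slc45a3, Slc2a8 and Slc37a1 had the next largest statistics, at -0.74 ± 0.25, -0.53 ± 0.19 and -0.57 ± 0.21 (limma adjusted p = 0.0542, 0.0692 and 0.0729). Slc45a3 passed with no normalization between arrays and with no variance trend (limma adjusted p = 0.037 and 0.036), and Slc37a1 without transgenic replicate 1 (-0.78).

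Lactate and other monocarboxylates are moved by the Slc16 family. Slc16a1, which carries lactate and pyruvate with protons, rose from 234.8 and 254.1 to 681.4 and 446.5, a log2 difference of 1.15 ± 0.20 (limma adjusted p = 0.00471). The transgenic arrays differed from each other by more than the wild-type arrays did, but both lay far above them. Slc16a3, a lactate exporter of glycolytic cells, stood at -0.42 ± 0.27 and Slc16a11 at -0.32 ± 0.18, and neither passed. These were the 3 tested of 10 monocarboxylate and dicarboxylate carriers. Bsg, the chaperone that takes Slc16a1 to the surface, stood at 3578.7 and 3828.9 against 3955.6 and 3310.3 and did not pass.

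Ion carriers had 32 members, of which 16 were tested, 2 rose and 1 fell, with a median of -0.03 (range -0.76 to 1.29). Slc20a2, a sodium-phosphate carrier, rose from 107.6 and 122.9 to 181.2 and 212.3, by 0.76 ± 0.17 (limma adjusted p = 0.0141). Its second probe set stood at 0.18 ± 0.22 and did not pass, and with the mean of both the gene did not pass (0.47, limma adjusted p = 0.053). The related Slc20a1 stood at 0.72 ± 0.26 and did not pass (limma adjusted p = 0.0667). It passed with median scaling (0.77, limma adjusted p = 0.048) and without wild-type replicate 1 (1.10, 0.026).

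The other rise was Slc4a8, a sodium-driven exchanger of bicarbonate for chloride, from a wild-type mean of 26.55 (34.6 in replicate 1, lower in replicate 2) to 67.7 and 63, by 1.29 ± 0.32 (limma adjusted p = 0.0202). Slc24a3, an exchanger of sodium for calcium and potassium, fell from 232.5 and 226.6 to 161.9 and 141.5, a change of -0.58 ± 0.16 (limma adjusted p = 0.028). All 3 calls depended on single arrays. Slc20a2 did not pass when wild-type replicate 1, or transgenic replicate 2, was left out (0.65 to 0.66, limma adjusted p = 0.079 to 0.086), nor Slc4a8 without wild-type replicate 2 or either transgenic array (0.96 to 1.36, 0.076 to 0.12), nor Slc24a3 when either wild-type array, or transgenic replicate 2, was left out (-0.60 to -0.49, 0.099 to 0.13). Slc4a2, a chloride-bicarbonate exchanger, stood at -0.13 ± 0.15.

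Metal carriers had 26 members, of which 23 were tested, none rose and 6 fell, with a median of -0.25 (range -2.75 to 0.18). They move zinc, copper, iron and magnesium. Slc39a8, which brings zinc and manganese into cells, fell from 463.4 and 597.1 to 87.8 and 60.9, a log2 difference of -2.75 ± 0.22 (limma adjusted p = 0.00034). It was the member with the largest change of all those tested, and its second probe set went from 358.6 and 486.3 to 37.3 and 44.3 (-3.16 ± 0.20). All 9 alveolar type II markers measured fell in the same lungs, as did all or most markers of several other cell types. The part of any of them in the fall of Slc39a8 was not tested.

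The other falls were smaller. Slc31a1, the main copper importer, went from 212.8 and 218.3 to 120.3 and 128.1 (-0.77 ± 0.16, limma adjusted p = 0.00886), and its relative Slc31a2 from 144.9 and 150.6 to 93.5 and 63.6 (-0.87 ± 0.22, 0.0201). The arrays of each group lay close together for Slc31a1 and less so for Slc31a2. Slc40a1, ferroportin, the iron exporter, went from 173 and 161 to 93.7 and 109.8 (-0.68 ± 0.17, limma adjusted p = 0.0205), although its second probe set stood at -0.22 ± 0.21 and the mean of both did not pass (-0.45, 0.073). Slc41a3, of a magnesium carrier family, went from 169.9 and 274 to 119.2 and 93 (-0.98 ± 0.25, limma adjusted p = 0.0227), with wild-type arrays far apart, and its mean over 3 probe sets did not pass (-0.52, 0.21). Slc39a13, a zinc carrier of intracellular vesicles, went from 149.2 and 108.8 to 70.7 and 72.4 (-0.75 ± 0.21, limma adjusted p = 0.0292).

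Of these 5 smaller falls each call ended when some array was left out. Slc31a1 was lost when wild-type replicate 2 was left out (-0.75, limma adjusted p = 0.054). Slc31a2 was lost when either wild-type array, or transgenic replicate 2, was left out (adjusted p of 0.082 to 0.11) and Slc40a1 when any array but transgenic replicate 2 was (0.073 to 0.092). The same held for Slc39a13 without wild-type replicate 1 or either transgenic array (0.086 to 0.14) and for Slc41a3 when replicate 2 of either group was left out (0.11 to 0.12). Slc30a1, the dim exporter mentioned above, stood at -2.07 in the 3 alternatives that tested it. It passed with every probe set on its own and with the mean of probe sets (limma adjusted p = 0.0245 and 0.021) and did not pass with no filter on dim genes (0.06).

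Mitochondrial carriers of the Slc25 family had 33 members, of which 30 were tested, 5 rose and 4 fell, with a median of 0.01 (range -1.11 to 2.16). The 9 that passed are 30% of those tested, against 30.4% of all genes. Slc25a13, citrin, which exchanges aspartate for glutamate, rose from 50.7 and 22.6 to 161.6 and 167.6, a log2 difference of 2.16 ± 0.31 (limma adjusted p = 0.0022). It was the largest rise among the tested members, and both wild-type arrays lay below the highest Bacillus control signal. Slc25a33, which carries pyrimidine nucleotides, rose from 34.6 and 54.7 to 94.5 and 95.9, by 1.11 ± 0.28 (limma adjusted p = 0.0194). Slc25a14, an uncoupling protein homologue, went from 28.2 and 27.4 to 64.2 and 50.2 (1.01 ± 0.30, limma adjusted p = 0.0354). The last of these is X-linked and dim on all 4 arrays.

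Slc25a15, the ornithine carrier, is read by a pair of probe sets that went opposite ways. The brighter by mean log2 signal went from 52.9 and 52.8 to 109.7 and 103.9 (1.002 ± 0.20, limma adjusted p = 0.00853). The other read 75.8 and 88.6 in wild type and 59.5 and 57.2 in transgenic lungs (-0.40 ± 0.21) and did not pass, and the mean of both did not pass either (0.30, limma adjusted p = 0.26). Slc25a3, which carries phosphate for ATP synthesis and is the brightest member on the array, went from 2680.3 and 2284 to 3593.2 and 4016. Its rise was 0.43 ± 0.12 after quantile normalization (limma adjusted p = 0.0274) and 0.69 with median scaling (0.0039), and it did not pass with no variance trend (0.11).

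The 4 falls included carriers of iron, coenzyme A and basic amino acids. Slc25a37, mitoferrin, which brings iron in for heme synthesis and is known from red cell precursors, went from 427.4 and 224.2 to 129.9 and 153 (-1.11 ± 0.28, limma adjusted p = 0.0208). Its wild-type arrays differed more from each other than the lower one did from either transgenic array. Alas2, the erythroid enzyme that starts heme synthesis, fell in the same lungs from 2136.8 and 1832.4 to 367.4 and 367.9, and the part of red cell precursors in the fall of mitoferrin was not tested. Slc25a42, the coenzyme A carrier, went from 140.1 and 139.8 to 84 and 81.1 (-0.70 ± 0.17, limma adjusted p = 0.0188). Slc25a29, a carrier of basic amino acids, went from 243 and 210.6 to 153.4 and 139.4 (-0.61 ± 0.16, 0.0254), and Slc25a45 from 144 and 155.9 to 101.3 and 99.8 (-0.54 ± 0.17, 0.0445). A dimmer probe set of Slc25a29 fell further, from 118.5 and 111.5 to 17.1 and 14.3. Its identifier ends in _x_at, the array maker's mark for probes that may also match other transcripts. Another probe set of the gene with that mark stood at -0.57 ± 0.20 and did not pass, and the remaining ones were too dim to test.

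Apart from Slc25a13, each call in the Slc25 family ended when some array was left out. Slc25a14, Slc25a29, Slc25a42 and Slc25a45 did not pass without any 1 of the 4 arrays (limma adjusted p = 0.092 to 0.24, 0.055 to 0.12, 0.054 to 0.078 and 0.089 to 0.15). Slc25a15 was lost without transgenic replicate 1 (0.057), Slc25a3 without replicate 2 of either group (0.11 to 0.15), and Slc25a33 and Slc25a37 without wild-type replicate 1 or either transgenic array (0.066 to 0.089 and 0.051 to 0.081). With the replicate number as a block the count of mitochondrial calls went from 9 to 6, without Slc25a14, Slc25a3 and Slc25a45 (limma adjusted p = 0.061, 0.055 and 0.072).

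The ADP/ATP carriers, among the most abundant proteins of the inner membrane, did not pass on their brightest probe sets. Slc25a4 stood at 1435.6 and 1354 against 1345.3 and 1420.2 (-0.04 ± 0.11) and Slc25a5 at 2288.8 and 2494.8 against 3099.9 and 2160.2 (0.04 ± 0.16). Slc25a5 has 8 probe sets, of which 3 dimmer ones rose when each was tested on its own, by 0.37 ± 0.11, 0.65 ± 0.15 and 1.04 ± 0.17. The identifiers of these 3, and of the brightest, end in _x_at, the array maker's mark for probes that may also match other transcripts, so the values of this gene are uncertain. Its probe sets without that mark stood at 0.39 ± 0.14 and 0.16 ± 0.11 and did not pass. With the mean of all 8 it passed at 0.41 (limma adjusted p = 0.035). For Slc25a4 1 of 4 probe sets rose, by 0.49 ± 0.13. The identifier of its brightest probe set ends in _x_at as well, and that of the one that rose does not. Slc25a30, which did not pass on its brightest probe set, had a dimmer one that fell on its own from 60.2 and 87.8 to 26.7 and 33.5 (-1.06 ± 0.29, limma adjusted p = 0.0331). Slc25a39 and Slc25a10, carriers of glutathione and of dicarboxylates, stood at -0.12 ± 0.11 and -0.09 ± 0.16. The probe set standing for Slc25a39 also has an identifier ending in _x_at.

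**Figure D3:**
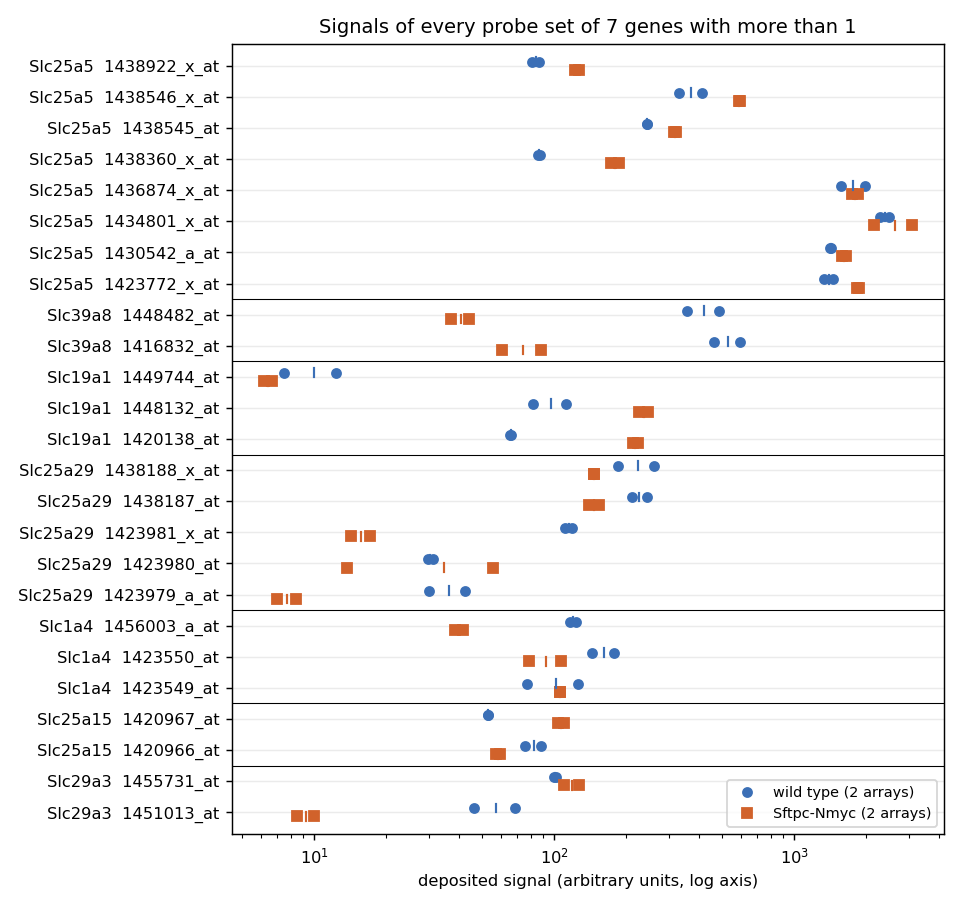
Deposited signal (arbitrary units, log x axis) of every probe set of 7 genes (y axis, gene and probe set), with circles for wild-type and squares for transgenic arrays and short bars for group means. The probe sets of Slc39a8 moved together, both of those for Slc29a3 and for Slc25a15 moved apart, and those of Slc25a5 ranged from groups that overlap to a separation of 1.04 log2 units.

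The remaining classes held mostly falls and values that did not pass. Of 17 peptide, vitamin, heme and urea carriers 8 were tested and 2 fell. Slc52a3, a riboflavin carrier, went from 234.4 and 256.8 to 81.6 and 84.8, a log2 difference of -1.48 ± 0.16 (limma adjusted p = 0.000845), with the arrays of each group close together. Slc23a2, which takes up ascorbate, went from 172.4 and 162.1 to 93.9 and 104.5 (-0.71 ± 0.17, limma adjusted p = 0.0155) and passed in only 1 of the 4 fits that leave out an array, the one without transgenic replicate 2, with the others at -0.74 to -0.65 (limma adjusted p = 0.062 to 0.070). Slc46a3 and Slc48a1, a heme carrier, stood at -0.68 ± 0.23 and -0.34 ± 0.19. The other probe set of Slc48a1 fell on its own, from 207.7 and 240.3 to 133.5 and 108.2 (-0.86 ± 0.18, limma adjusted p = 0.0129), and the mean of both passed (-0.60, 0.037). Slc46a3 has 1 probe set, and in the fit on means of probe sets its unchanged value of -0.68 passed (limma adjusted p = 0.041).

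Organic ion, drug and vesicular amine carriers had 25 members, of which 8 were tested and 1 fell. Slc22a23, an organic ion carrier family member, went from 217.4 and 252.8 to 89.2 and 96.7, a log2 difference of -1.27 ± 0.17 (limma adjusted p = 0.00167). Slc18a1, a vesicular monoamine carrier, stood just outside the threshold at -1.09 ± 0.35 (limma adjusted p = 0.0509), with signals of 61 and 107.1 against 24.6 and 43.4. It passed under 6 alternatives, including the replicate block (0.028). Slc22a17 and Slc22a5, a carnitine carrier, stood at -0.36 ± 0.26 and -0.21 ± 0.19.

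Among 15 lipid, choline, acetyl-CoA and bile acid carriers, 9 were tested and Slc10a6, a carrier of sulfated steroids, fell from 215.8 and 240.1 to 118.4 and 102.5 (-1.001 ± 0.17, limma adjusted p = 0.00421). Slc27a4, a fatty acid transport protein, stood at 222.1 and 214.3 against 116.8 and 202.4 (-0.48 ± 0.24), with its transgenic arrays far apart. Without transgenic replicate 2 it was -0.86 (limma adjusted p = 0.026). Slc10a3 and Slc27a1 stood at -0.42 ± 0.20 and 0.32 ± 0.21. Of 4 tested Slc6 carriers of neurotransmitters, creatine and osmolytes, the taurine carrier Slc6a6 fell from 199.7 and 228.5 to 124.3 on both transgenic arrays (-0.75 ± 0.16, limma adjusted p = 0.0113). It no longer passed when wild-type replicate 2 was left out (-0.66, limma adjusted p = 0.071) and with the mean of its 3 probe sets, of which the others were dim (-0.08, 0.88). The creatine carrier Slc6a8 and the amine carriers Slc6a3 and Slc6a2 stood at -0.36 ± 0.17, -0.43 ± 0.30 and -0.11 ± 0.40.

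None of the 5 nucleotide sugar carriers of the Slc35a type passed, from -0.23 ± 0.18 for Slc35a5 to 0.27 ± 0.19 for Slc35a2, which brings UDP-galactose into the Golgi. A dimmer probe set of Slc35a4, whose identifier also ends in _x_at, rose on its own, from 98.8 and 119.8 to 162 and 175 (0.62 ± 0.18, limma adjusted p = 0.0394). The brightest stood at 0.15 ± 0.14, and the mean of both did not pass (0.39, limma adjusted p = 0.075). Of the 3 genes that are not carriers, Slc9a3r2, an adaptor that ties carriers and receptors to the cytoskeleton, fell from 922.9 and 966.8 to 414.8 and 458.2 (-1.13 ± 0.13, limma adjusted p = 0.000995). All 5 of its other probe sets fell as well, at -1.47 to -0.83. The related Slc9a3r1 stood at 0.16 ± 0.19 and Slc4a1ap at -0.21 ± 0.20. All 10 endothelial markers fell in the same lungs, as did all or most markers of several other cell types. The part of any of them in the fall of Slc9a3r2 was not tested.

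**Figure D4:**
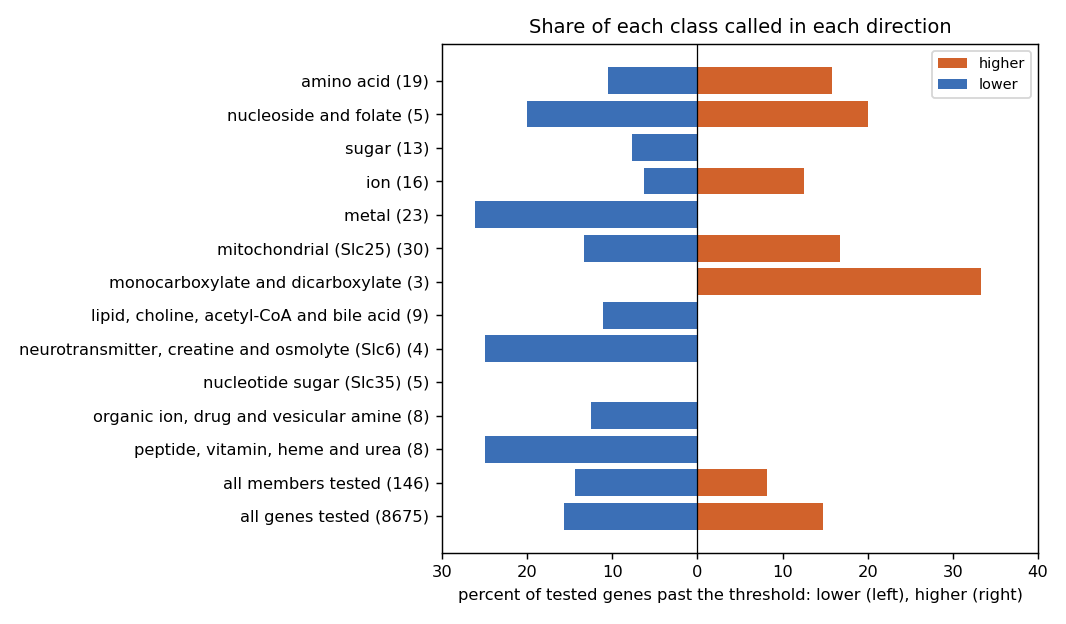
Percent of tested genes that passed as lower (left) and higher (right) in transgenic lungs, for each class, all members and all genes (x axis; y axis gives the number tested). The 3 genes that are not carriers have no row of their own. The metal, sugar, lipid, Slc6, nucleotide sugar, organic ion and vitamin classes have no bar on the higher side; classes hold as few as 3 genes, where 1 gene is 33.3%.

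Over all genes tested 14.7% were higher and 15.7% lower. Of tested amino acid carriers 15.8% were higher and 10.5% lower, against 20% and 20% of nucleoside and folate carriers, 16.7% and 13.3% of mitochondrial carriers, 12.5% and 6.25% of ion carriers, 0% and 7.69% of sugar carriers and 0% and 26.1% of metal carriers. With 5 to 30 tested genes in a class, a single gene moves these shares by several points, and differences between classes were not tested. Among other transporters, 1 of 18 tested transporters without an Slc symbol rose and 5 fell (median -0.11), and 1 of 14 ABC transporters rose and 4 fell (median -0.25). Slco2a1, a prostaglandin carrier, fell by 2.33 ± 0.21 and Abcc1, an exporter of conjugates, rose by 0.80 ± 0.25. Of 17 partners of carriers, 3 rose and 1 fell (median 0.03). Timm10, which helps deliver carriers to the inner mitochondrial membrane, rose by 1.05 ± 0.19, and Sgk1, a kinase that regulates many carriers, fell by 1.01 ± 0.17.

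Of the 33 calls 10 stood under every alternative that gave a value, with 4 higher, Slc7a5, Slc16a1, Slc19a1 and Slc25a13, and 6 lower, Slc7a10, Slc9a3r2, Slc10a6, Slc22a23, Slc39a8 and Slc52a3. The other 23 were lost when at least 1 array was left out, which leaves a group with a single array that is assumed to vary like the other group.

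**Figure D5:**
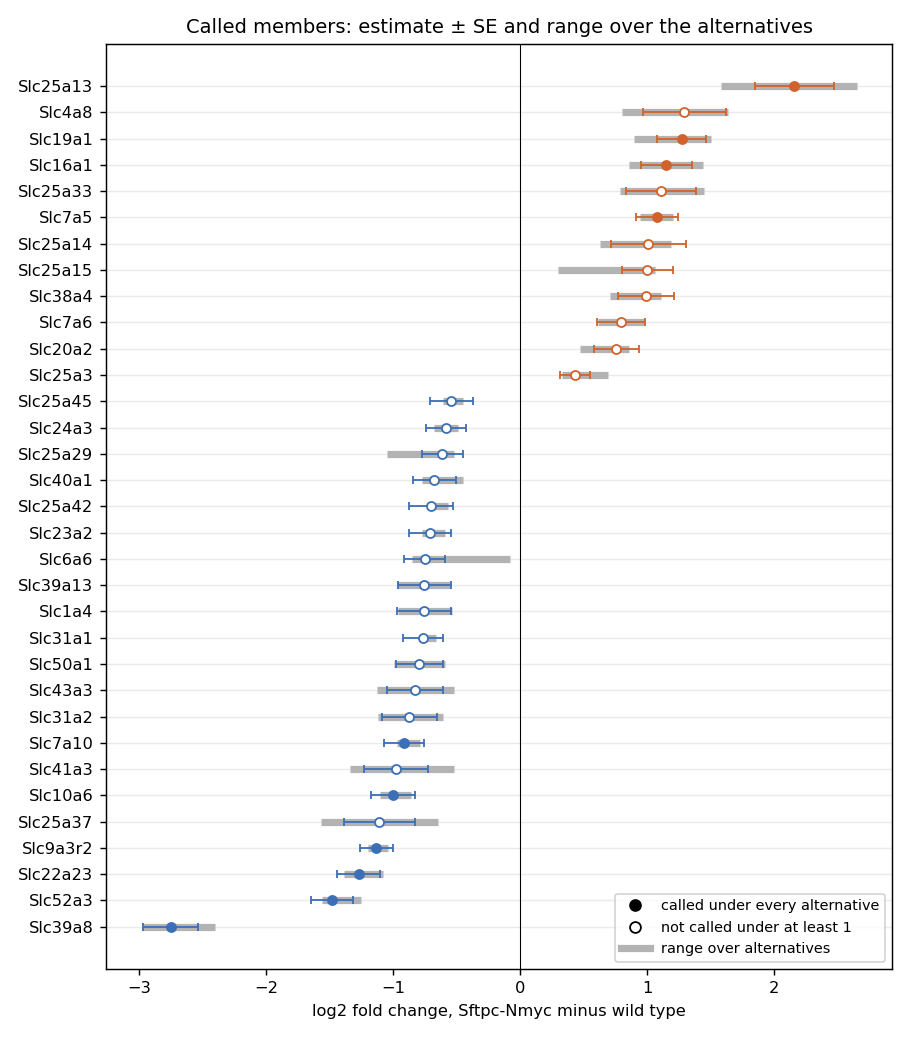
Log2 fold change (transgenic minus wild type, x axis) of the 33 members that passed, with points for the estimate, thin bars for ± 1 SE and grey bars for the range over 14 alternatives. Filled points were called under every alternative that gave a value, as for Slc39a8 between -2.98 and -2.40, and open points were not called under at least 1.

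Where a called gene had another probe set bright enough to test, the probe sets mostly went the same way. This applied to 14 of the 33, and in 7 at least 1 other probe set passed in the same direction. In 12 every other tested probe set had the same sign, with Slc1a4 and Slc25a15 as the exceptions, and no member had probe sets that passed in opposite directions. The same counts were not taken over all called genes, so whether the carriers differ from them in this is not known. Tested on their own, 51 of 244 member probe sets passed (20.9%), 19 higher and 32 lower, against 26.4% of all probe sets, 13.5% higher and 12.9% lower.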

How the data were processed

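The 4 samples, 2 per group, were hybridised to 1 Affymetrix array each. The authors deposited linear intensities, with a single value for each probe set. Per the labels' protocols, RNA extraction used an RNeasy kit and labelling with biotin an Affymetrix kit. Which software, background correction and scaling made the values is not given in the sources used here. Array medians were 65.45 to 70.8. Names came from GEO's annotation of the platform, and all 385 member probe sets matched the RefSeq gene table (GRCm38.p6) by identifier with 0 symbols updated. Values under 1 were set to 1, 5 was added, log2 was taken and the 22690 probe sets less 64 controls were quantile normalized. The probe set with the highest mean stood for a gene. Such a choice can favour a probe set that is bright in only 1 group. For Slc25a15 the chosen one was the dimmer in wild type, at 52.9 and 52.8 against 75.8 and 88.6. By group means that of Slc20a2 was brighter only in transgenic lungs, and that of Slc1a4 brightest only in wild type. With the mean of probe sets the calls of Slc25a15 and Slc20a2 were lost, and that of Slc1a4 was kept. How many other genes this touches was not counted. Genes under the 30th percentile of mean signal over all arrays were left out, a filter that does not use the group labels. It can still keep a gene through 1 bright group. Slc25a14, at 28.2 and 27.4 in wild type and 64.2 and 50.2 in transgenic lungs, was tested. Slc1a3, at 32.3 to 46.6, was not. Slc4a8 and Slc25a13 also had dim wild-type signals, so these calls of higher lean on the transgenic arrays to enter the test. limma 3.58.1 (R 4.3.3; lmFit, then eBayes with trend, on group alone) tested the 8675 genes, with Benjamini-Hochberg adjustment over all and a threshold of 0.05. Fold changes are on the log2(value + 5) scale, which understates those of dim genes. Errors are limma standard errors. The code was tested on simulated data. The number of arrays limits the precision.

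Named are a fixed list of carriers known from growing cells, every called member changed at least 2-fold, up to 4 members per class with the largest statistic, the largest call against each class's direction, and members with probe sets called in opposite directions. Other names (such as Slc25a3, Slc41a3, Slc39a13, Slc25a29, Slc25a45, Slc25a30 and Slc30a1) were chosen after their values were seen. Members, classes and lists were chosen with earlier results of these data known. Alternatives were another offset, normalization, filter, probe set rule or variance trend, the replicate number as a block, and leaving out each array. The replicate numbers of the titles do not pair samples by any label.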

Additional observations from a re-analysis of the deposited data

How the results depend on the processing

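No called member changed sign under any of the 14 alternatives, but several of them could not show a reversal. With every probe set on its own, the value read was that of the probe set standing for the gene. Another filter, no variance trend and the replicate block leave an estimate as it is. The fits with 1 array left out kept the probe sets and genes chosen on all 4 arrays. The count of 33 calls was 24 to 38 under the 9 alternatives other than the block and the left-out arrays, 30 with the replicate block and 16 to 21 with 1 array left out (5 to 10 higher and 9 to 14 lower). With no filter on dim genes, where 12393 genes share the adjustment, 11 of the 33 calls were lost (Slc1a4, Slc4a8, Slc25a3, Slc25a14, Slc25a33, Slc25a37, Slc25a45, Slc31a2, Slc39a13, Slc41a3 and Slc43a3). Slc25a45 was also lost with median scaling and with every probe set on its own. The 12 rises became 6 with the 50th percentile filter, which tests fewer genes. That filter tested 98 members, against 242 with no filter and 244 member probe sets when each was tested on its own. The share of all genes that passed went from 30.4% to 16.7% with no filter on dim genes and to 25.6% with the replicate block. In the remaining fits on all 4 arrays it was 26% to 37.9%. This share was also below 30.4% in each fit with 1 array left out, so fewer calls there were not confined to the carriers. Deviations of arrays with the same replicate number correlated at -0.023, so the numbers give no pairing, and besides the mitochondrial carriers and Slc1a4 the block ended no call. Counts per class moved most. With no filter on dim genes 1 nucleoside or folate, 3 metal and 4 mitochondrial carriers passed, and with the 50th percentile filter 5 mitochondrial carriers did. With no normalization between arrays, and with no variance trend, 2 sugar carriers passed. Of the ion carriers 1 passed with the mean of probe sets and 5 with no variance trend. With 1 array left out the counts were 2 to 4 for amino acid, 1 to 2 for nucleoside and folate, 0 to 2 for sugar, 0 to 2 for ion, 2 to 4 for metal and 3 to 4 for mitochondrial carriers. The median of the nucleoside and folate carriers turned to -0.31 with the mean of probe sets, where 4 were tested and Slc29a3 reversed to -0.88. The sugar median was -0.19 over single probe sets. The metal median was -0.20 with an offset of 32 and -0.18 with median scaling, and the mitochondrial median 0.07 with median scaling and -0.04 with the 50th percentile filter. With 1 array left out, medians were -0.18 to 0 for amino acid, 0.09 to 0.25 for nucleoside and folate, -0.35 to -0.26 for sugar, -0.05 to 0.10 for ion, -0.35 to -0.26 for metal and 0 to 0.02 for mitochondrial carriers. The cause of these shifts was not tested. Median scaling moved the median of all genes from -0.02 to 0.03.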
